A study of Rattus norvegicus with 16 samples.

Results

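The mitosis genes are 36 named rat genes that act when a cell enters, passes through and leaves mitosis. They were listed by name and by role, and the list was made with earlier results of these data known. A gene was measured where the platform annotation gives a probe set that symbol alone, and its brightest probe set over all arrays was used. That held for 33 of the 36, out of 14217 genes in all. Anln and Ckap2 have only probe sets annotated to several symbols, and Nek2 was not matched. Of the 33, 23 had 1 probe set and 10 had several.

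The arrays came from adrenal tissue of rats of a mixed Sprague–Dawley white eye/Wistar–Kyoto strain, and the mutant rats carried a mutation of p27Kip1 (the gene Cdkn1b, written Cdknb1 in the labels), whose zygosity the labels do not give. Pheochromocytoma, a tumour of the catecholamine-producing chromaffin cells, was measured on 4 arrays of mutant rats, 3 of 8 months labelled female and 1 of 9 months labelled male. The older wild-type medulla was measured on 2 arrays, pool 1 of 2 animals of 10 months labelled female and pool 2 of 2 animals of 12 and 17 months labelled male. Adrenal medullary hyperplasia was measured on 8 arrays of mutant rats of 2 months, replicates 1 to 4 labelled female and 5 to 8 labelled male, and young wild-type medulla of 2 months on 2 arrays, pool 1 of 2 animals labelled male and pool 2 of 3 animals labelled female. A pool averages its animals, so the spread of the wild-type arrays is smaller than that of individual rats would be. The series text sets each lesion against wild-type tissue of matched age, though by the labels both older pools were older than the tumours. The same text gives the animals as littermates.

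Mitosis starts when the kinase Cdk1 is activated by cyclin B, and the Aurora and Polo kinases then build the spindle. The spindle checkpoint holds the anaphase-promoting complex and its activator Cdc20 back until every chromosome is attached, after which separase opens cohesin and the centralspindlin complex directs the cleavage of the cell. Many of these genes are transcribed late in the cell cycle, through complexes that bind the cell cycle genes homology region (CHR) and through NF-Y, which binds the CCAAT box. Chromaffin cells of the adult medulla divide rarely, and p27Kip1 is an inhibitor of the cyclin-dependent kinases.

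All levels are log2 values as deposited, differences are log2 differences ± standard error from 1 limma fit over the 16 arrays, and a gene passed with a Benjamini-Hochberg adjusted p under 0.05. Replicate arrays of a group correlated at 0.981 to 0.996 over all probe sets. The 13 measured chromaffin markers had a higher mean in the lesions. Array means were 12.34 to 12.54 in pheochromocytoma against 11.82 to 12.32 in older wild type. They were 12.75 to 12.89 in hyperplasia against 12.52 to 12.63 in the young pools. Of the 13 markers 5 rose in pheochromocytoma, among them Ddc (0.85) and Slc18a1 (0.73) of catecholamine synthesis and storage. In hyperplasia 2 rose, Slc6a2 (1.33) and Phox2a (1.02), and 0 fell in either lesion. Not all went up: Pnmt was at -0.33 and -0.64 and Th at 0.15 and -0.13, and neither passed. Slc6a2 had means of 9.10 in hyperplasia and 7.77 in young wild type (adjusted p = 0.00176 in limma). Its means were 6.23 in pheochromocytoma and 5.55 in older wild type, a difference of 0.68 ± 0.24 that did not pass (adjusted p = 0.0655). The 11 adrenal cortex markers were lower in the lesions, with array means of 9.82 to 11.04 in pheochromocytoma against 11.33 to 11.61 in older wild type, and of 9.96 to 10.72 in hyperplasia against 10.99 to 11.20 in the young pools. Of the cortex markers 8 fell in pheochromocytoma and 3 in hyperplasia. The part of either shift in the mitosis gene differences was not tested, beyond the cortex covariate given with the results. Xist, the RNA that coats the silenced X, was at 11.29 to 12.66 on some arrays and at 2.86 to 4.32 on the others, and on 6 arrays this went against the labelled sex. These were hyperplasia 1 and 2 (labelled female, without Xist), hyperplasia 5 and 6 (labelled male, with Xist), young pool 1 (labelled male, with Xist) and young pool 2 (labelled female, without Xist). The fit therefore uses no sex. Of the 2 probe sets of Cdkn1b, the brighter was higher by 0.94 ± 0.12 in pheochromocytoma (adjusted p = 0.000256) and by 0.73 ± 0.11 in hyperplasia (adjusted p = 0.00101). The dimmer was at 3.83 to 4.40 in pheochromocytoma and 4.07 to 4.21 in older wild type. In hyperplasia it was at 5.45 to 6.81, against 6.96 and 6.84 in young wild type, all 8 arrays below both pools, and the difference of -0.81 ± 0.26 did not pass (adjusted p = 0.0676). The labels and the annotation do not place either probe set against the mutation, so neither checks the genotype.

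In pheochromocytoma 15 of the 33 mitosis genes rose against older wild type, 1 fell and 17 did not pass. Over all 14217 genes 9.66% rose and 7.1% fell. The median difference of the mitosis genes was 0.87, against 0.00 over all genes, and 30 of the 33 differences were positive. In hyperplasia 13 rose against young wild type, 0 fell and 20 did not pass, where 5.42% of all genes rose and 3.47% fell. The median difference was 0.69, against -0.01 over all genes, and 32 of 33 were positive. At an unadjusted p under 0.05 there were 25 mitosis genes in each comparison, where 33.2% of all genes reached it in pheochromocytoma and 25.8% in hyperplasia.

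Top2a, Aurkb, Bub1, Kif2c, Spdl1, Ect2, Racgap1 and Mad2l1 rose in both lesions, 8 of 33, where 3.45% of all genes did. Another 7 passed as higher in pheochromocytoma and not in hyperplasia, 5 passed in hyperplasia and not in pheochromocytoma, and 12 passed in neither. The difference between the 2 effects was tested for each gene, and 0 of the 33 passed in limma, with 2 at an unadjusted p under 0.05. Of all genes 0.0141% passed that test and 10.8% had an unadjusted p under 0.05. Those with the lower p were Spdl1 (0.34 ± 0.15, adjusted p = 0.424) and Kif22 (-0.65 ± 0.29, adjusted p = 0.427), so the division into genes that passed in 1 lesion or the other is not a tested difference between them. In tissue RNA, fewer cells of a type and less RNA per cell cannot be told apart.

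**Figure D1:**
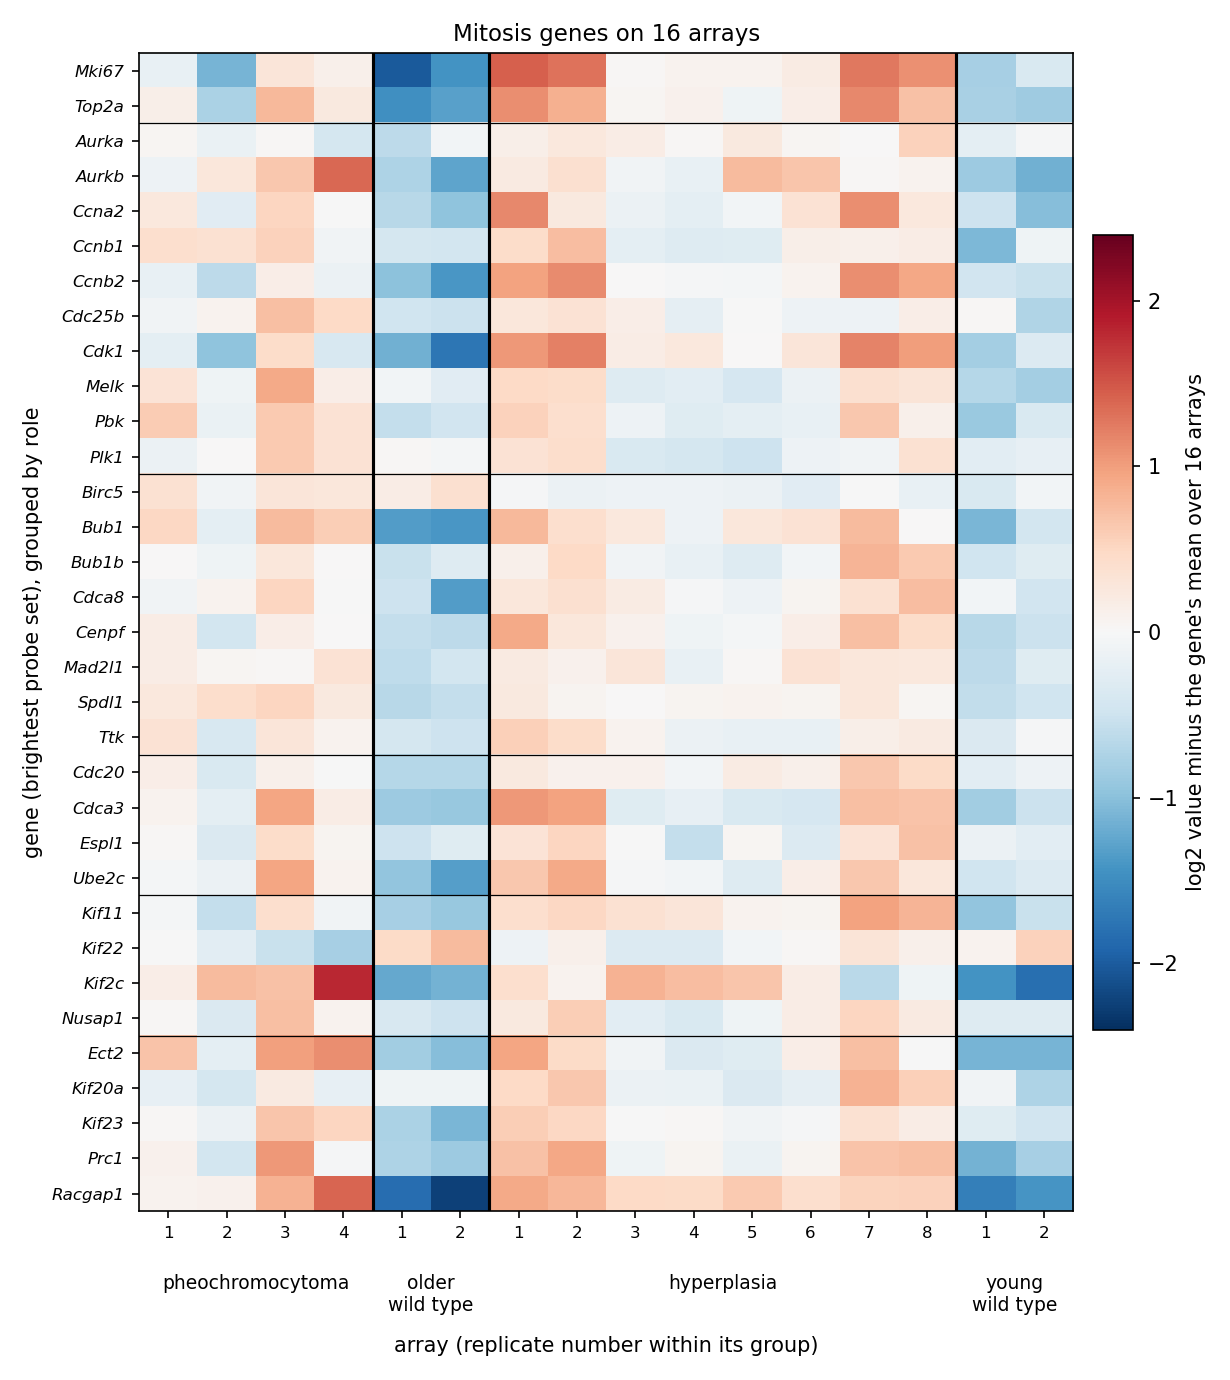
Log2 value of each of the 33 measured mitosis genes on each of the 16 arrays, minus the mean of that gene over the 16 arrays, with genes grouped by role (horizontal lines) and arrays by group (vertical lines). Hyperplasia arrays 1, 2, 7 and 8 are darker red than 3 to 6 in most rows, and the 4 wild-type pools are blue in most.

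**Figure D2:**
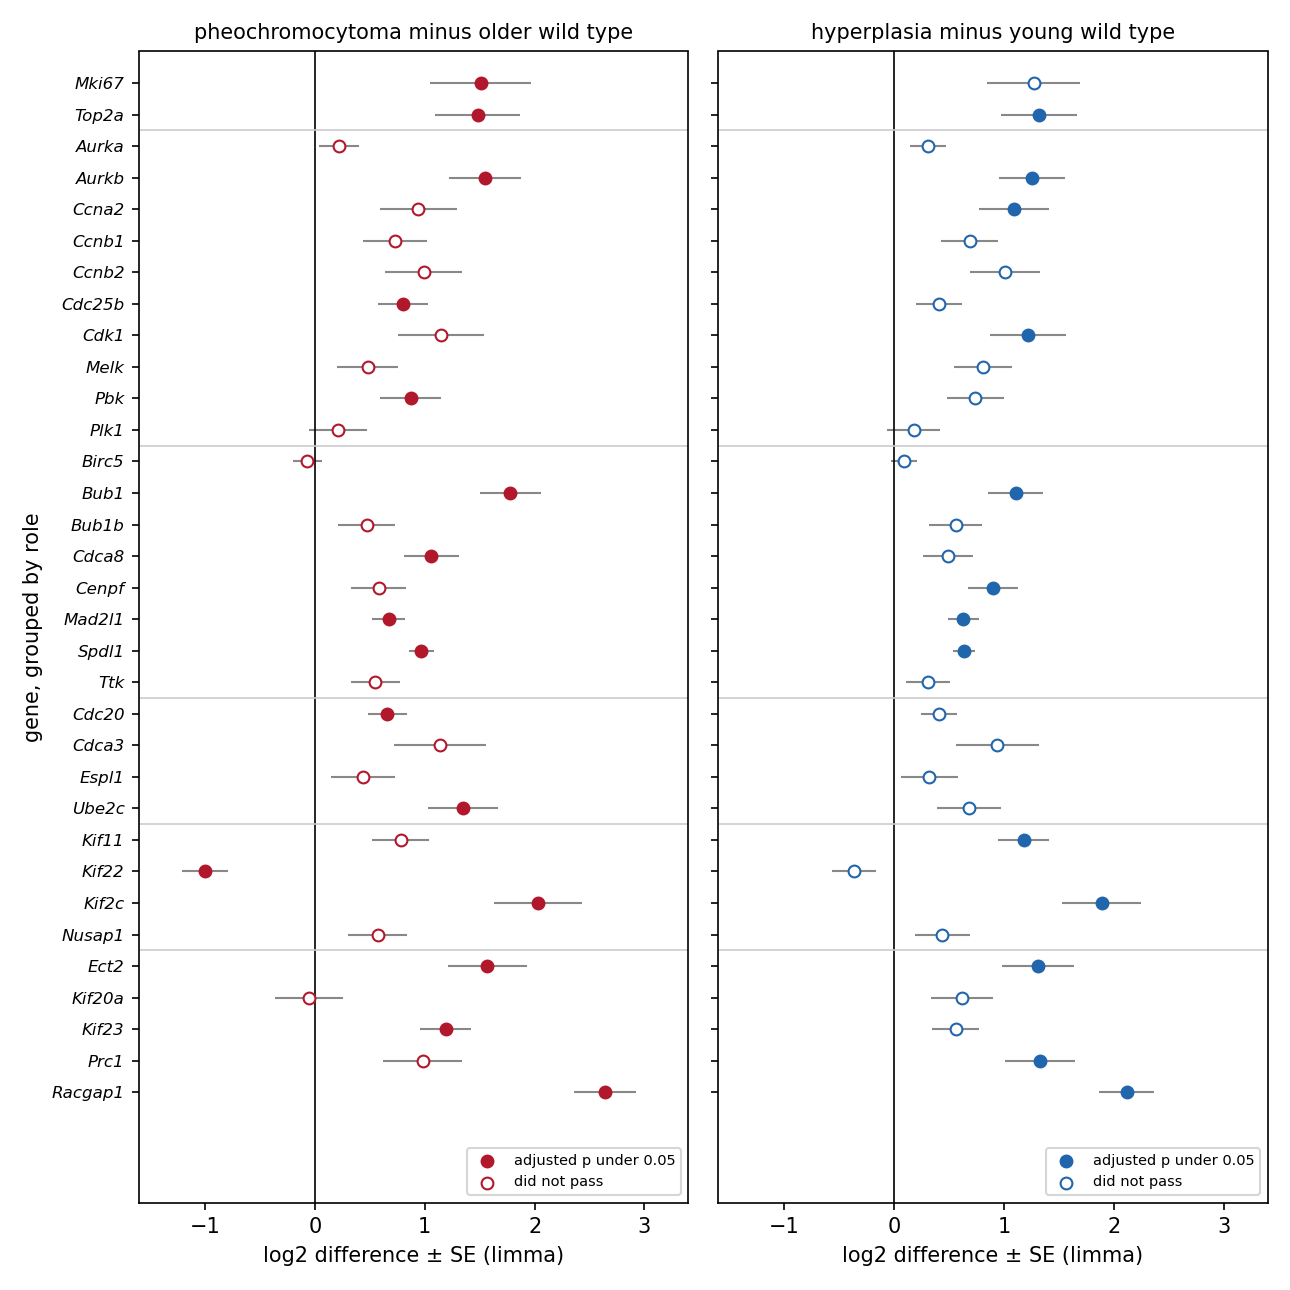
Log2 difference ± SE from the limma fit for each mitosis gene, in pheochromocytoma minus older wild type (left) and hyperplasia minus young wild type (right). Filled points passed at an adjusted p under 0.05. Racgap1 lies furthest to the right in both panels, at 2.64 and 2.12, and Kif22 lies furthest to the left in both, filled in pheochromocytoma and open in hyperplasia.

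RefSeq promoter windows of GRCr8, from 250 bases before to 50 after the annotated start, were at hand for 28 of the 33 genes. CHR letters (TTTGAA or TTCGAA, either strand) lay in 20 of the 28 windows, 71.4%, against 14.0% of the windows of 11733 genes on the arrays. A CCAAT box (CCAAT, either strand) lay in 22, 78.6%, against 37.3%, and both together in 18, 64.3%, against 5.75%. At least 2 CCAAT boxes lay in 15 windows, 53.6%, against 12.5%. Of the 26 CHR matches, 21 began between 100 bases before and 30 after the start. E2F words (TTTGGCGC, TTTCCCGC, TTTGCCGC or TTTCGCGC, either strand) lay in the Cdk1 window alone, 3.57% against 3.64%. A CHR and a CCAAT match can share a base. Windows of 4 genes are given, in lower case with CHR and CCAAT matches in capitals (TTCAAA and ATTGG are the same motifs on the other strand). Ect2 carries both motifs and rose in both lesions, Prc1 carries both and rose in hyperplasia, Kif22 carries both and fell in pheochromocytoma, and Kif2c carries neither and rose in both.
Prc1, chr1:143659231-143659530, plus strand: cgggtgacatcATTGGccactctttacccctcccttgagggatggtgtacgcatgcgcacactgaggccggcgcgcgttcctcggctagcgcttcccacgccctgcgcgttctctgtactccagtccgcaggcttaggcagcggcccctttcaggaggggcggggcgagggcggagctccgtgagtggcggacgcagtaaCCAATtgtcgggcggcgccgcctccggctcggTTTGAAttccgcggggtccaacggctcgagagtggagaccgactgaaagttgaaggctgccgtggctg
Ect2, chr2:111966577-111966876, minus strand: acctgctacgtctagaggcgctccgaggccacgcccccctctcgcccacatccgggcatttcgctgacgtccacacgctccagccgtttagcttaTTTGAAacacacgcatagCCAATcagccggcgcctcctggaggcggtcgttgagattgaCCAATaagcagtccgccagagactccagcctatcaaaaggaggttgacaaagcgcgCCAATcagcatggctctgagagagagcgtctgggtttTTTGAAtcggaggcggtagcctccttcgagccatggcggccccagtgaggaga
Kif22, chr1:191080829-191081128, minus strand: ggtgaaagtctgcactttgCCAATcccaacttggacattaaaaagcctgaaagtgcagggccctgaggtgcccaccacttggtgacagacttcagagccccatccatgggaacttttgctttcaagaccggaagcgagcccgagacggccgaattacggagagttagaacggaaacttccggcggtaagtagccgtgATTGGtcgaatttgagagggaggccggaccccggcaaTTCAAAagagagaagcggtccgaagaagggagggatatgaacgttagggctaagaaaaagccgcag
Kif2c, chr5:135899163-135899462, minus strand: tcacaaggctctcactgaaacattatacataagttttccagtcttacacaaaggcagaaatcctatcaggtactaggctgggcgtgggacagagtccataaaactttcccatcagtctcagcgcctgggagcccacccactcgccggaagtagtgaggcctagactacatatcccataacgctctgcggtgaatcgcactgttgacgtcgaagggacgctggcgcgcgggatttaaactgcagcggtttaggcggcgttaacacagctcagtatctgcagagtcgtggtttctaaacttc

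A match says only that the letters are in the window. Windows with both motifs belonged to 8 genes that rose in pheochromocytoma and 6 that rose in hyperplasia, of 18. Among the 10 other genes with a window 3 and 4 rose. The median differences with both motifs were 0.88 in pheochromocytoma and 0.52 in hyperplasia, against 0.70 and 0.75 for the 10 others. Ccna2, Aurkb, Ube2c, Pbk and Racgap1 had no window and are in neither set. Of these Aurkb and Racgap1 rose in both lesions, Ube2c and Pbk in pheochromocytoma and Ccna2 in hyperplasia.

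Widely used markers of dividing cells open the list: Mki67, which coats mitotic chromosomes, and Top2a, the topoisomerase that untangles them. Mki67 was at 6.49, 5.55, 6.96 and 6.79 in pheochromocytoma, against 4.64 and 5.23 in older wild type. In hyperplasia it ran from 6.69 to 8.09 with a median of 7.31, against 5.87 and 6.29 in the young pools. Every lesion array lay above its wild-type pools. Mki67 rose by 1.51 ± 0.46 in pheochromocytoma (adjusted p = 0.0376), and in hyperplasia the difference of 1.27 ± 0.42 did not pass (adjusted p = 0.0753). Top2a was at 7.00, 6.09, 7.63 and 7.08 in pheochromocytoma, against 5.38 and 5.55 in older wild type, and at 6.74 to 8.00 (median 7.29) in hyperplasia, against 6.08 and 5.99 in young wild type. The groups did not overlap in either comparison, and Top2a rose by 1.48 ± 0.39 (adjusted p = 0.0185) and by 1.32 ± 0.35 (adjusted p = 0.032). A second, dimmer probe set of Top2a was higher by 0.69 (adjusted p = 0.127) in pheochromocytoma and by 0.84 (adjusted p = 0.066) in hyperplasia and did not pass.

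Among the 10 kinases, cyclins and their activators, 3 rose in each lesion and 0 fell. Aurkb, the kinase of the chromosomal passenger complex, rose in both. It was at 6.57, 6.96, 7.34 and 8.06 in pheochromocytoma, against 5.95 and 5.42 in older wild type, and at 6.51 to 7.45 (median 6.85) in hyperplasia, against 5.81 and 5.53 in young wild type. The lesions lay above their pools throughout, and tumour 4 was the highest of all arrays. The differences were 1.55 ± 0.33 in pheochromocytoma (adjusted p = 0.00638) and 1.26 ± 0.30 in hyperplasia (adjusted p = 0.0184). Cdk1, the kinase that drives entry into mitosis, rose in hyperplasia by 1.22 ± 0.35 (adjusted p = 0.0472), with 6.73 to 7.92 (median 7.36) against 5.90 and 6.39 in young wild type. Cdk1 passed there in 7 of the 16 fits that each omitted 1 array. In pheochromocytoma it was at 6.48, 5.76, 7.16 and 6.34, against 5.57 and 4.99 in older wild type, and the difference of 1.15 ± 0.39 did not pass (adjusted p = 0.0571). Its partner Ccnb2 had differences of 0.99 ± 0.35 and 1.01 ± 0.32 that did not pass (adjusted p = 0.0737 and 0.0692), with all lesion arrays above their pools.

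Ccnb1, the main cyclin of mitosis, had differences of 0.73 and 0.69 that did not pass by its brightest probe set. By its second probe set it was higher by 1.10 ± 0.25 in pheochromocytoma (adjusted p = 0.00836), at 5.01 to 5.69 against 4.06 and 4.44 in older wild type, so the call on Ccnb1 depends on the probe set. Ccna2, cyclin A, rose by 1.09 ± 0.32 in hyperplasia (adjusted p = 0.0498), close to the threshold. Both young pools, at 3.87 and 3.35, and 5 of the 8 hyperplasia arrays were under the first quartile of their arrays. Ccna2 passed there in 3 of the 16 fits that each omitted 1 array. Cdc25b, the phosphatase that activates Cdk1, rose by 0.80 ± 0.23 in pheochromocytoma (adjusted p = 0.0278), with 6.42 to 7.22 against 6.02 and 5.99 in older wild type. Pbk, a kinase active in mitosis, rose there by 0.87 ± 0.28 (adjusted p = 0.048), and passed in 5 of those 16 fits. The Aurora kinase of the spindle poles, Aurka, and Polo-like kinase, Plk1, had differences of 0.22 and 0.21 in pheochromocytoma and of 0.31 and 0.18 in hyperplasia, and neither passed. Melk, a kinase of dividing cells, differed by 0.48 and 0.81 and did not pass.

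The 8 checkpoint and kinetochore genes held 4 that rose in each lesion. Bub1, the checkpoint kinase at the kinetochore, rose in both lesions. It was at 6.01, 5.28, 6.27 and 6.11 in pheochromocytoma, against 4.17 and 4.12 in older wild type, both below the first quartile of their arrays. In hyperplasia it was at 5.39 to 6.30 (median 5.82), against 4.42 and 5.07 in young wild type. No lesion array came as low as a pool. The differences were 1.78 ± 0.28 in pheochromocytoma (adjusted p = 0.000995) and 1.11 ± 0.25 in hyperplasia (adjusted p = 0.0144), and with pools this dim the first may understate the change. Spdl1, which brings dynein to the kinetochore, moved less but with little spread. Its values were 6.25, 6.42, 6.52 and 6.24 in pheochromocytoma, against 5.34 and 5.43 in older wild type, and 6.00 to 6.28 (median 6.07) in hyperplasia, against 5.41 and 5.53 in young wild type. The groups were far apart beside their spread, and Spdl1 rose by 0.97 ± 0.11 (adjusted p = 0.000139) and by 0.64 ± 0.10 (adjusted p = 0.00154).

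Mad2l1, the checkpoint protein that binds Cdc20, rose by 0.67 ± 0.15 in pheochromocytoma (adjusted p = 0.00793) and by 0.63 ± 0.14 in hyperplasia (adjusted p = 0.011). Of its 2 other probe sets neither passed, and by the mean of the 3 its difference in pheochromocytoma was 0.34 (adjusted p = 0.0518). Cdca8, borealin of the chromosomal passenger complex, rose by 1.06 ± 0.25 in pheochromocytoma (adjusted p = 0.0112), with 0.49 ± 0.23 in hyperplasia (adjusted p = 0.211), and Cenpf, a large kinetochore protein, by 0.90 ± 0.23 in hyperplasia (adjusted p = 0.0236), with 0.58 ± 0.25 in pheochromocytoma (adjusted p = 0.133). Bub1b and Ttk, checkpoint kinases, did not pass. Both are among the 5 mitosis genes, with Ccna2, Melk and Espl1, whose mean level lay below 4.82, the mean first quartile of the arrays, where a difference could be missed. Birc5, survivin, a subunit of the passenger complex, was at 6.08, 5.63, 6.01 and 5.99 in pheochromocytoma, against 5.90 and 6.10 in older wild type. It was at 5.45 to 5.70 (median 5.59) in hyperplasia, against 5.35 and 5.65 in young wild type. The groups overlapped, and its differences of -0.07 and 0.09 did not pass.

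Of the 4 genes of anaphase and mitotic exit, 2 rose in pheochromocytoma and 0 in hyperplasia. Ube2c, the ubiquitin-conjugating enzyme of the anaphase-promoting complex, was at 6.47, 6.38, 7.47 and 6.60 in pheochromocytoma, against 5.57 and 5.19 in older wild type. It was at 6.21 to 7.43 (median 6.73) in hyperplasia, against 6.04 and 6.19 in young wild type. The lesions lay above the pools in both, though in hyperplasia by a narrow margin. Ube2c rose by 1.35 ± 0.32 in pheochromocytoma (adjusted p = 0.0113), and the 0.68 ± 0.29 in hyperplasia did not pass (adjusted p = 0.176). Cdc20, the complex's activator, rose by 0.66 ± 0.18 in pheochromocytoma (adjusted p = 0.0203), a call that was lost when its probe sets were averaged (0.19, adjusted p = 0.233). Cdca3 (1.14 and 0.94) and Espl1, separase (0.44 and 0.32), did not pass.

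Spindle motors and spindle proteins held a gene that rose in both lesions and the mitosis gene that fell in pheochromocytoma. Kif2c, the kinesin that takes apart microtubule ends at the centromere, was at 7.19, 7.80, 7.74 and 8.84 in pheochromocytoma, against 5.81 and 5.91 in older wild type. In hyperplasia it was at 6.40 to 7.88 (median 7.33), against 5.61 and 5.23 in young wild type. The groups did not overlap. Kif2c rose 4.09-fold in pheochromocytoma (2.03 ± 0.40, adjusted p = 0.00376) and 3.71-fold in hyperplasia (1.89 ± 0.36, adjusted p = 0.00512). Its second probe set rose in hyperplasia (1.40 ± 0.32, adjusted p = 0.0149), and in pheochromocytoma it was at 5.39, 5.72, 5.66 and 6.54 against 5.25 and 5.15 in older wild type, a difference of 0.63 ± 0.35 that did not pass (adjusted p = 0.252). With the mean of the cortex markers added as a covariate the brighter one was at 0.72 in pheochromocytoma (adjusted p = 0.349) and 0.97 in hyperplasia (adjusted p = 0.0946), and the part of cortex tissue in it was not tested.

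Kif22, the chromokinesin that pushes chromosome arms, went the other way. It was at 7.96, 7.72, 7.44 and 7.17 in pheochromocytoma, against 8.43 and 8.72 in older wild type, and at 7.64 to 8.27 (median 7.94) in hyperplasia, against 8.06 and 8.52 in young wild type. All 4 tumours lay below both pools, and the hyperplasia arrays overlapped theirs. Kif22 fell by 1.00 on the log2 scale in pheochromocytoma (SE 0.21, adjusted p = 0.00637), to 0.499 of the wild-type level, and the -0.36 ± 0.20 in hyperplasia did not pass. With the cortex covariate the difference in pheochromocytoma was -0.29 (adjusted p = 0.495). Kif11, the kinesin that pushes the spindle poles apart, rose by 1.18 ± 0.23 in hyperplasia (adjusted p = 0.00649), at 5.68 to 6.58 against 4.67 and 5.08 in young wild type. Its second probe set, nearly as bright, differed by 0.28 ± 0.12 in hyperplasia (adjusted p = 0.182) and by -0.06 in pheochromocytoma, so the call depends on the probe set. By the brightest, the 0.78 ± 0.26 in pheochromocytoma did not pass (adjusted p = 0.0521). Nusap1, a spindle microtubule binder, did not pass (0.57 and 0.44).

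The 5 cytokinesis genes had median differences of 1.19 in pheochromocytoma and 1.31 in hyperplasia, and 3 rose in each. Racgap1, the GTPase-activating subunit of centralspindlin, was at 7.83, 7.84, 8.58 and 9.14 in pheochromocytoma, against 5.91 and 5.50 in older wild type. In hyperplasia it was at 8.14 to 8.65 (median 8.28), against 6.11 and 6.32 in young wild type. The lowest lesion array stood far above the highest pool. Racgap1 rose 6.23-fold in pheochromocytoma (2.64 ± 0.28, adjusted p = 8.34e-05) and 4.36-fold in hyperplasia (2.12 ± 0.25, adjusted p = 0.000192). A second, dimmer probe set also rose, by 1.00 ± 0.27 (adjusted p = 0.0216) and by 1.70 ± 0.24 (adjusted p = 0.000835).

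Racgap1 binds Kif23, the motor subunit of centralspindlin, and Ect2, the exchange factor that activates RhoA at the cleavage site. Kif23 rose by 1.19 ± 0.23 in pheochromocytoma (adjusted p = 0.00346), with 5.51, 5.35, 6.16 and 6.00 against 4.73 and 4.40 in older wild type. Its 0.56 ± 0.21 in hyperplasia did not pass (adjusted p = 0.114), and its second probe set had differences of -0.07 and 0.31. Ect2 was at 6.76, 5.83, 7.06 and 7.19 in pheochromocytoma, against 5.24 and 5.04 in older wild type, and at 5.72 to 7.01 (median 6.14) in hyperplasia, against 4.96 and 4.95 in young wild type. All lesion arrays exceeded their pools, and Ect2 rose by 1.57 ± 0.36 (adjusted p = 0.0102) and by 1.31 ± 0.33 (adjusted p = 0.0255). Prc1, which bundles the midzone microtubules, rose in hyperplasia by 1.33 ± 0.32 (adjusted p = 0.0208), at 7.21 to 8.30 (median 7.74) against 6.24 and 6.57 in young wild type. In pheochromocytoma Prc1 was at 7.47, 6.93, 8.41 and 7.34, against 6.63 and 6.50 in older wild type (0.98 ± 0.36, adjusted p = 0.0783). Kif20a, a motor of late mitosis, had differences of -0.05 and 0.62 that did not pass.

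**Figure D3:**
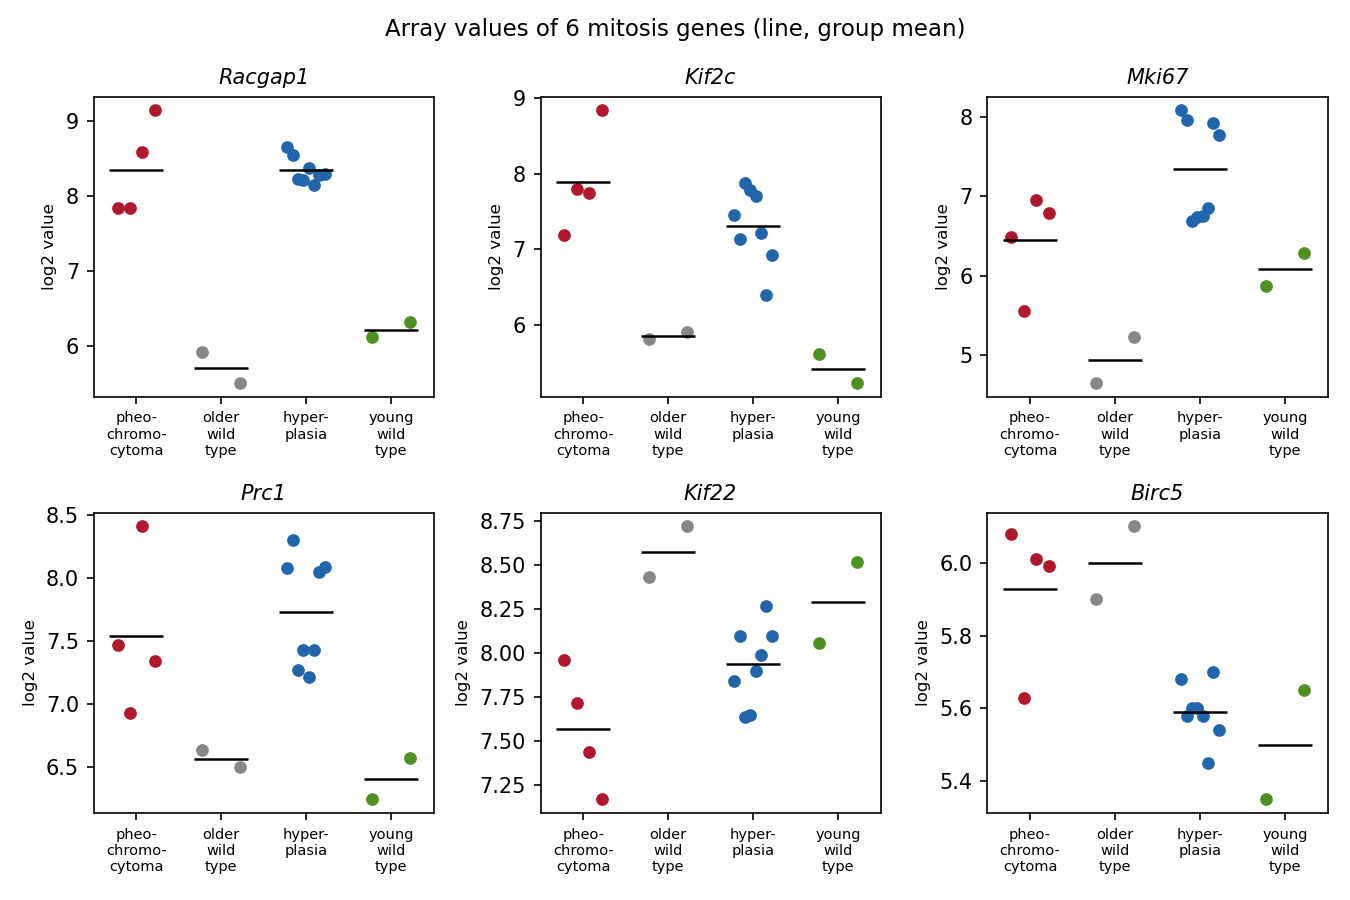
Log2 values of 6 mitosis genes on every array, with a line at each group mean. Racgap1 and Kif2c lie above the pools in both lesions, Kif22 lies below them in pheochromocytoma, and the hyperplasia arrays of Mki67 and Prc1 form an upper and a lower set of 4.

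For 26 of the 33 genes all 4 tumours lay above both older pools, which held for 22.7% of all genes. For 22 all 8 hyperplasia arrays lay above both young pools, against 12.7% of all genes. Tumour 3 was the highest tumour for 22 genes and tumour 2 the lowest for 22. The mean over the 33 genes was 6.38, 6.06, 6.77 and 6.50 in pheochromocytoma and 5.58 and 5.51 in older wild type. It was 6.82, 6.78, 6.29, 6.18, 6.23, 6.34, 6.78 and 6.67 in hyperplasia replicates 1 to 8 and 5.66 and 5.75 in young wild type. Hyperplasia replicates 1, 2, 7 and 8 were high and 3 to 6 lower, and the high ones are the 4 arrays without Xist.

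Array by array, 19 of the 33 genes had all 4 hyperplasia arrays without Xist above all 4 with Xist, and 0 had the reverse. Of all genes 8.93% showed the first order and 8.63% the second. The median of the mitosis genes was higher by 0.54 without Xist, against 0.00 over all genes. Mki67 was at 7.77 to 8.09 without Xist and 6.69 to 6.86 with it, Ccnb2 at 7.18 to 7.38 and 6.20 to 6.33, Cdk1 at 7.72 to 7.92 and 6.73 to 7.00, and Prc1 at 8.05 to 8.30 and 7.21 to 7.43. For these 4 genes the gap between the sets was wider than either set. Racgap1, Spdl1, Mad2l1 and Birc5 differed by 0.20, 0.11, 0.09 and 0.07, and Aurkb and Kif2c were lower without Xist, with differences of -0.11 and -0.66. These sets were drawn from the arrays and are not groups of the study, so no test was made.

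By comparison, the 31 DNA replication genes measured had a median of 0.08 higher without Xist, and 6 of them had all 4 arrays without Xist above those with it. Of the other mitosis lists, that order held for 7 of 24 spindle and cytokinesis genes (median 0.29). It held for 6 of 26 kinetochore genes (0.14) and 6 of 24 mitotic entry genes (0.15). Each of these 3 lists had 1 gene in the reverse order. Of 18 cohesin and condensin genes 4 had it and 2 the reverse (-0.02), and of 15 anaphase-promoting complex genes 0 and 2 (0.00). The cortex marker means were 10.18 to 10.72 without Xist and 9.96 to 10.40 with it. Within the arrays with Xist, and within those without it, each lesion was set against 1 wild-type pool, which is taken to vary like the other arrays. With Xist 5 mitosis genes rose in pheochromocytoma (median 0.76), where 3.57% of all probe sets passed, and 7 in hyperplasia (median 0.47), where 7.71% did. Without Xist 14 rose in pheochromocytoma (median 0.84), with 1 tumour against 1 pool and 16% of all probe sets passing, and 17 in hyperplasia (median 0.93), where 5.24% passed. By the labels, female against male hyperplasia gave 0 mitosis genes and 0.0% of all genes in limma, 0 of the 33 at an unadjusted p under 0.05 (3.0% of all genes), and differences from -0.30 to 0.50. Without the 4 hyperplasia arrays that went against their label, Kif11, Spdl1 and Racgap1 remained of the 13 that rose in hyperplasia.

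**Figure D4:**
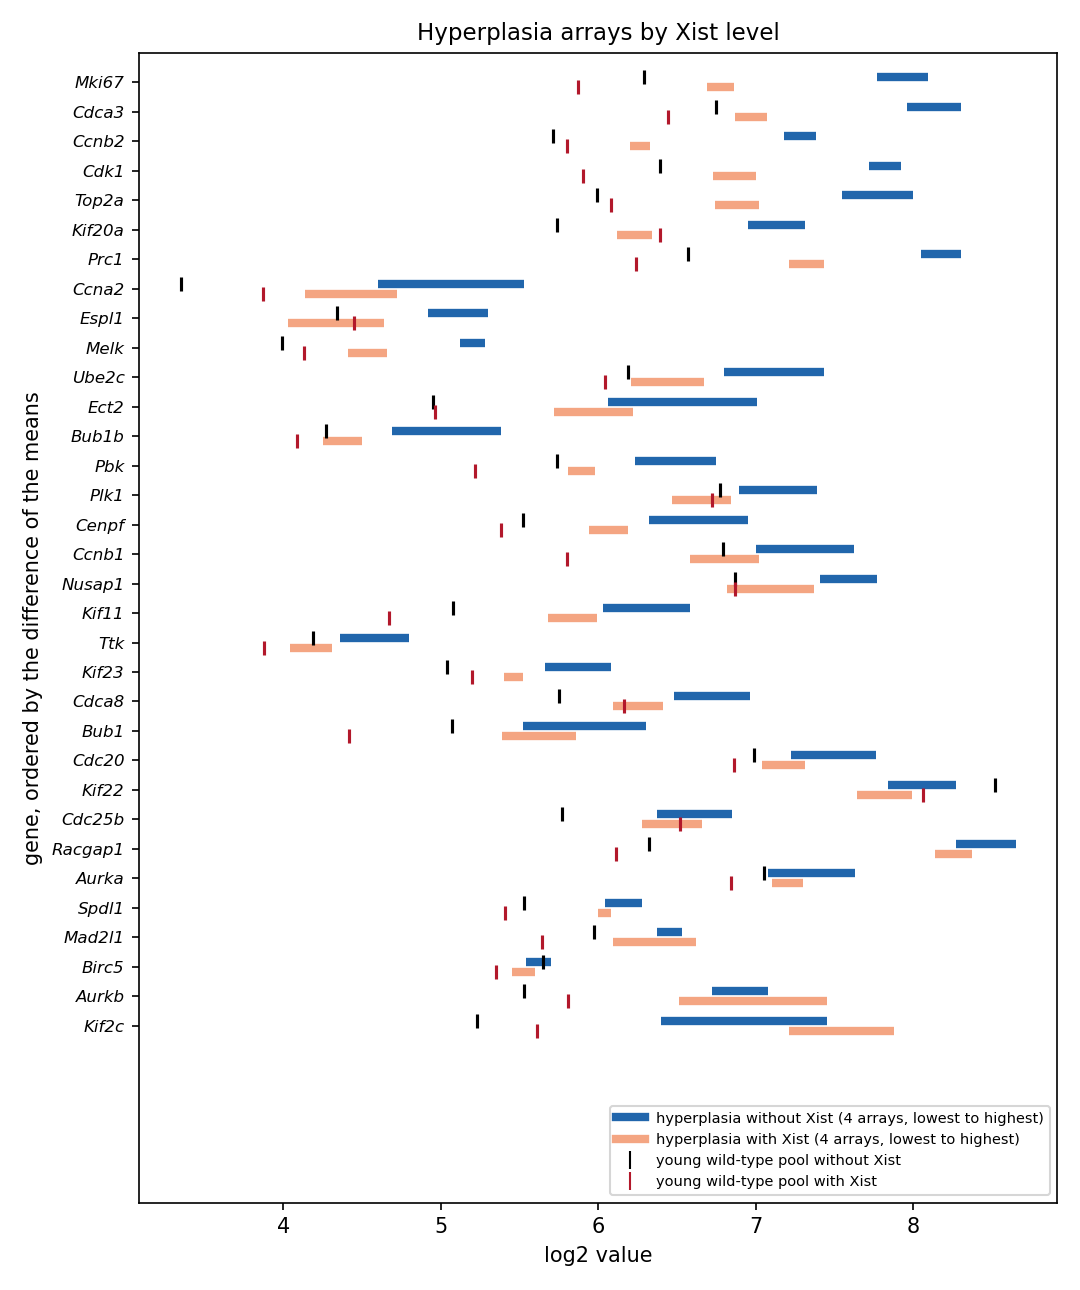
Lowest to highest log2 value of each mitosis gene over the 4 hyperplasia arrays without Xist (blue) and the 4 with Xist (orange), ordered by the difference of their means, with the 2 young wild-type pools as ticks. The bars are apart for 19 genes, widest for Mki67 at the top, and the order turns for Aurkb and Kif2c at the bottom.

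Pheochromocytoma and hyperplasia were also set against each other. Birc5 and Spdl1 were higher in pheochromocytoma, by 0.34 ± 0.09 (adjusted p = 0.0071) and 0.25 ± 0.08 (adjusted p = 0.0167), 2 of 33 where 15.7% of all genes were higher. Cdk1 (-0.93 ± 0.27, adjusted p = 0.0126), Mki67 (-0.90, adjusted p = 0.0341), Ccnb2 (-0.72, adjusted p = 0.0315) and Kif11 (-0.51, adjusted p = 0.0336) were lower, 4 of 33 where 20.2% of all genes were lower. Both shares were below those of all genes. In older against young wild type Birc5 was higher (0.50 ± 0.15, adjusted p = 0.0215), 1 of 33 against 8.58% of all genes, and 0 were lower in limma against 12.9%, with 4 of the 33 at an unadjusted p under 0.05 in either direction, against 34.2% of all genes. Age moves with these comparisons, and so do the array controls of RNA length. The hexokinase control probe sets, 3′ minus 5′, were at 2.16 to 3.30 in pheochromocytoma and 2.29 to 2.92 in older wild type, against 1.21 to 1.63 in hyperplasia and 1.07 to 1.18 in the young pools, and their part in the result was not tested. For several genes the probe set decides this comparison. Kif2c was at 0.58 by its brightest probe set and -0.81 (adjusted p = 0.0154) by its second, and Ccnb1 at 0.21 and -0.73 (adjusted p = 0.0032). The brightest probe set of Racgap1 differed by 0.01 ± 0.20 (adjusted p = 0.981), and its second one was at 4.41, 4.35, 4.86 and 5.66 in pheochromocytoma against 5.78 to 6.48 (median 6.18) in hyperplasia, a difference of -1.35 ± 0.19 (adjusted p = 3.37e-05).

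Of the other genes of mitosis, 107 measured of 122 listed by role, 26 rose and 1 fell in pheochromocytoma (median 0.31), and 20 rose and 1 fell in hyperplasia (median 0.28). Of 26 kinetochore genes 6 rose in pheochromocytoma (23.1%), and 3 rose (11.5%) and 1 fell in hyperplasia, where 9.66% and 5.42% of all genes rose. Cenpk, of the centromere network, rose by 1.53 ± 0.25 (adjusted p = 0.00134) and 1.16 ± 0.23 (adjusted p = 0.0062). Spc25 (1.11) and Nuf2 (0.93) of the Ndc80 complex passed in pheochromocytoma, Sgo1 (0.76) and Dsn1 (0.57) in hyperplasia, and Zwint, named because it was the 1 that fell, was at -0.41 there. Of 18 cohesin and condensin genes 5 rose in each lesion, among them the condensin subunits Ncapd2 (0.68 and 0.93) and Ncapg2 (0.56 and 0.81). Of 24 spindle and cytokinesis genes 9 rose in pheochromocytoma and 7 in hyperplasia, led by the centriole kinase Plk4 (1.37) and the kinesin Kif20b (1.35) in pheochromocytoma, and by Kif20b (1.35), Kif15 (1.29) and Kifc1 (1.24) in hyperplasia.

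Of 24 genes of mitotic entry 3 rose in pheochromocytoma, 12.5% where 9.66% of all genes did, and 4 in hyperplasia, 16.7% against 5.42%. They were Cks2, a small subunit of Cdk complexes (1.94 and 1.56), Lin9, a core subunit of the MuvB complex that binds the CHR (1.87 and 1.35), Rbl1, the pocket protein p107 (1.19 and 0.90), and Pimreg in hyperplasia (0.94). The MuvB subunits Lin37 (0.03 and -0.12), Lin52 (0.31 and 0.11) and Lin54 (0.45 and 0.39) did not pass in either lesion. Of 15 anaphase-promoting complex genes 3 rose and 1 fell in pheochromocytoma, where Cdc26 was at 0.67, Anapc5 at 0.46 and Anapc2 at -0.57, and 1 rose in hyperplasia, Anapc1 at 0.38. Of 31 DNA replication genes 15 rose in pheochromocytoma and 16 in hyperplasia, with medians of 0.45 and 0.43, led by Mcm4 of the replicative helicase (1.18) and Cdt1 of origin licensing (1.38).

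**Figure D5:**
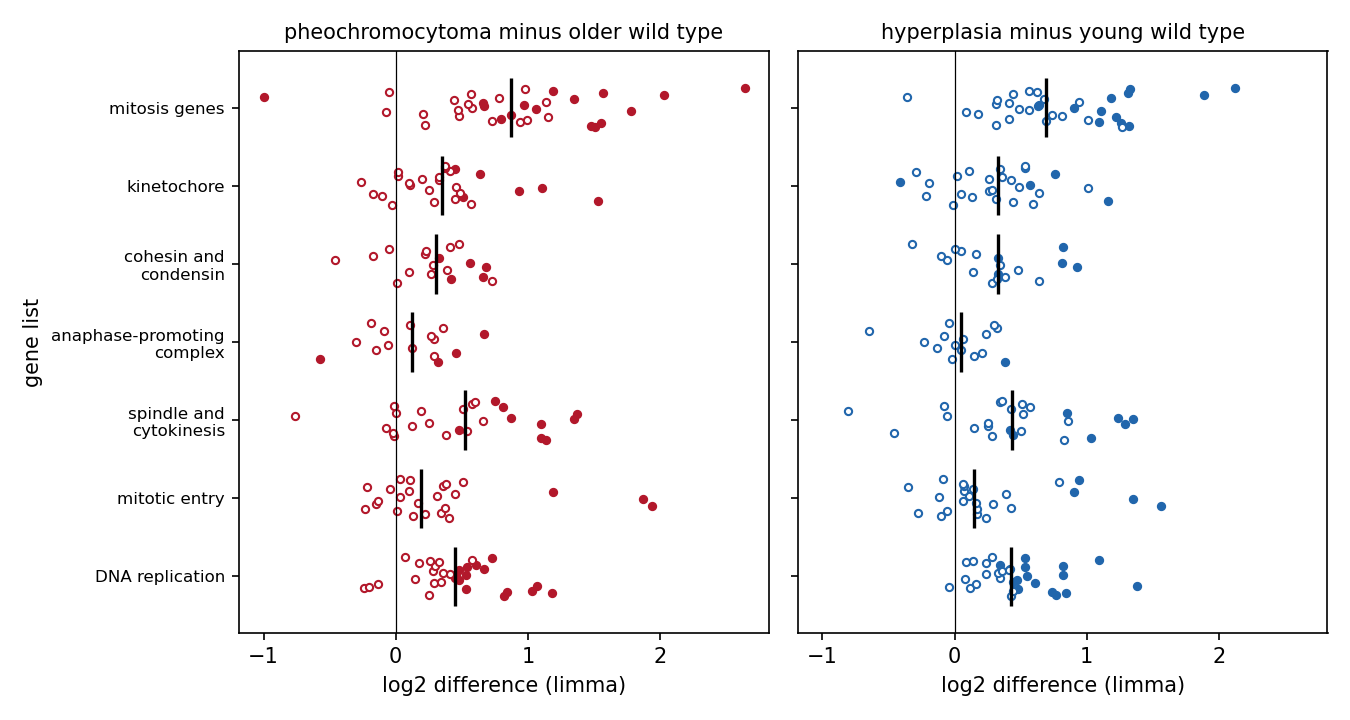
Log2 differences of the mitosis genes and of 6 other gene lists, in pheochromocytoma minus older wild type (left) and hyperplasia minus young wild type (right), with filled points for genes that passed at an adjusted p under 0.05 and a line at each median. The mitosis genes have medians of 0.87 and 0.69, and the anaphase-promoting complex has the lowest, 0.12 and 0.05.

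When each array was omitted in turn, 3 of the 16 genes that passed in pheochromocytoma and 2 of the 13 in hyperplasia passed every time. Without young pool 1, Kif2c, Spdl1 and Racgap1 remained in hyperplasia, and without young pool 2 Bub1, Kif11, Spdl1, Racgap1 and Mad2l1. In pheochromocytoma 10 genes passed without older pool 1, and Bub1, Spdl1 and Racgap1 without older pool 2. With that cortex covariate Spdl1 and Racgap1 passed in pheochromocytoma, where 0.422% of all probe sets did, and Kif11, Spdl1 and Racgap1 in hyperplasia, where 1.11% did. The differences of Aurkb, Cdc25b, Kif2c and Kif22 in pheochromocytoma and of Aurkb and Kif2c in hyperplasia were then smaller by over 1.5 times. Those of Bub1, Ect2, Racgap1 and Mad2l1 in both lesions, and of Kif23 in pheochromocytoma, were smaller by less. Those of the other genes that had passed were larger, among them Mki67 in pheochromocytoma (1.86 against 1.51). Top2a in hyperplasia was at 1.46 ± 0.45, against 1.32 ± 0.35 without the covariate, and did not pass (adjusted p = 0.147 in limma). The cortex array means of lesions and pools did not overlap. Of 14 macrophage and leukocyte markers 0 passed in either comparison, with array means of 7.97 to 8.45 in pheochromocytoma against 8.07 to 8.15 in older wild type, and of 8.55 to 9.07 in hyperplasia against 8.54 to 8.61 in the young pools. Of 6 Schwann and sustentacular cell markers Mbp (0.88) and Sox10 (0.68) rose and S100b (-1.44) fell in pheochromocytoma, with array means of 6.79 to 6.96 against 6.85 in both older pools. Of 9 fibroblast and pericyte markers Rgs5 (1.95) rose in pheochromocytoma, with array means of 8.48 to 9.19 against 8.33 to 8.37 in older wild type, and Pdgfra (-0.80) fell in hyperplasia. Of 9 endothelial markers Tek (-0.65) fell in pheochromocytoma, with array means of 8.53 to 9.05 against 8.62 to 8.65 in older wild type. The part of these cells in the results was not tested.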

How the data were processed

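RNA of 16 arrays was measured, 4 of pheochromocytoma, 2 of older wild type, 8 of hyperplasia and 2 of young wild type. The deposited values are log2 values, 1 per probe set and array, made with RMA per the submitters' processing notes (version not given in the sources used here). RMA normalizes across arrays and shrinks the differences of dim probe sets, and the sources used here do not say which arrays entered 1 normalization. The number of arrays limits the precision.

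After 57 control probe sets were left out, 31042 were tested by limma 3.58.1 (R 4.3.3) in 1 fit of 4 group means with no sex term, with 12 residual degrees of freedom and two-sided tests, adjusted by Benjamini-Hochberg over all of them. Code was tested on simulated data. Symbols came from the platform annotation, and 20758 probe sets matched the rat gene table by Entrez identifier, and 0 symbols changed. Of the probe sets 20826 had 1 symbol, 436 had several and 9780 had none. A gene is represented by the brightest probe set with 1 symbol. All 33 measured members are named, and from each other list up to 3 passing genes with the largest differences. Of genes outside that rule, Zwint, Lin37, Lin52 and Lin54 were named after their values were seen. The members and lists were chosen with earlier results of these data known. The labels call the lesion arrays and the older wild-type pools biological replicates, and all wild-type arrays are pools.

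Alternatives were labelled sex, Xist level or the cortex marker mean as a covariate, the replicate number as a block, a fit of only the groups compared, a robust prior with an intensity trend, quantile normalization, median centring, leaving out the 30% dimmest probe sets, each gene's mean over its probe sets, and omitting the 4 hyperplasia arrays that go against their label or each array in turn. Fits within the arrays with and without Xist were chosen after seeing the data. Whether the replicate numbers pair the arrays was not settled. The deviations of same-numbered arrays from their group means correlated at -0.08 to 0.05. With 2 pools in each wild-type group the deviations of the pools mirror each other, so these values cannot decide it.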

Additional observations from a re-analysis of the deposited data

Results flagged for a closer look

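In 66 groups of 4 or 8 arrays, 1 array stood apart from the rest of its group. Aurka, a spindle pole kinase, was at 7.63 on hyperplasia replicate 8, with the next highest hyperplasia array at 7.33 and the lowest at 7.08. Chance alone sets apart about 1 in 20 groups.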

How the results depend on the processing

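The median difference of the mitosis genes stayed at 0.71 to 0.99 in pheochromocytoma against older wild type and at 0.47 to 0.93 in hyperplasia against young wild type under all alternatives run, and no called member turned its direction in these comparisons. The counts moved more. Against the 16 genes that passed in pheochromocytoma and the 13 in hyperplasia, 2 and 3 passed once the mean of the cortex markers was a covariate (0.422% and 1.11% of all probe sets, against 14.3% and 7.4% without it), and 5 and 7 within the arrays with Xist (3.57% and 7.71%). The fit on only the groups compared called 8 in pheochromocytoma (6.17%), and leaving out the 4 hyperplasia arrays against their label called 3 in hyperplasia (2.22%). With the Xist level as a covariate 24 and 16 passed (14.5% and 9.07%). Leaving out each array in turn called 3 to 20 in pheochromocytoma and 3 to 14 in hyperplasia, the lowest without older pool 2 and young pool 1. Between pheochromocytoma and hyperplasia 6 genes passed (40.7% of all probe sets), 2 without those 4 arrays (33.1%) and 2 to 7 without single arrays (2 without tumour 2, 3 without hyperplasia replicate 8). Between older and young wild type 1 passed, 2 with the Xist level (Birc5 and Mki67) or the cortex mean (Birc5 and Kif2c) as a covariate, and 0 to 2 without single arrays. In a fit of the 4 wild-type pools Mki67 passed as lower and Birc5 did not pass. With the replicate number as a block, 6 passed in pheochromocytoma and 2 in hyperplasia, where 5.13% and 1.79% of all probe sets did. In the last 2 comparisons 0 passed with it, where 29.0% and 19.4% did. By the mean over its probe sets Racgap1 was at -0.67 in pheochromocytoma against hyperplasia (adjusted p = 0.00763), against 0.01 by its brightest probe set, since its second probe set differs. Apart from that and from fits with fewer arrays or fewer degrees of freedom, the cause was not tested. The dim members limit what can be seen.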
